A study of Mus musculus with 6 samples.

Results

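The genes described here encode the Myc, Max and Mxd network of transcription factors. All 10 were taken by name (Myc, Mycn, Mycl, Max, Mga, Mnt, Mxi1, Mxd1, Mxd3 and Mxd4), out of 21853 protein-coding genes in the annotation. For each gene, H3K27ac peaks were taken at its promoters (within 1 kb of the transcription start site (TSS) of any protein-coding isoform), in its body, and within 200 kb of its ends. This gave 118 of the 22973 peaks listed for control cells. The cells were mouse embryonic stem cells (mESCs) of the E14Tg2A Rosa26-Cre Oct4-IRES-Puro line, kept undifferentiated with LIF and the kinase inhibitors PD0325901 and CT-99021, and the control cells received the solvent DMSO. They are a single line, and chromatin of human HEK293 cells had been added to each sample as a spike-in. The other groups of the series, with 2 replicates each like the control, received for 2 h either 100 nM NVP-2, which inhibits the elongation kinase CDK9, or 800 nM actinomycin D, which binds DNA and blocks RNA polymerases. They were not analysed here. The list pools the 2 control replicates and gives the position of each peak without height or score, so that no value has a replicate error, the number of reads behind a peak cannot be read from it, and no test was made. The labeled cell type was checked by its markers. Promoters of all 8 stem cell markers looked at, among them Pou5f1, Nanog and Esrrb, had a peak, and those of Gata1, Alb, Neurod1 and Myod1 had none. Of 4 fibroblast markers only Twist1 had one, as did Gata4 and Gata6 of 4 endoderm markers.

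Max is the shared partner of the network. It pairs through a basic helix-loop-helix leucine zipper with the Myc proteins, which activate growth genes, and with the Mxd proteins, Mnt and Mga, which recruit repressors, and the pairs bind the same DNA element, the E-box CACGTG. In mESCs Myc is an effector of LIF signaling that favors self-renewal, and Mga joins Max in a Polycomb complex that silences germline genes. H3K27ac is an acetylation of histone H3 found at active promoters and enhancers.

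Promoters of 8 of the 10 network genes were marked by a peak. Among all protein-coding genes the share was 51.0%. All 3 Myc genes were marked, as were Max, Mga and Mnt, which encodes a broadly expressed Max-binding repressor. The Mxd branch was divided. Mxi1 and Mxd3 were marked, whereas Mxd1 and Mxd4, which encode repressors known from cells that leave the cell cycle and differentiate, had no peak at the promoter or anywhere in the gene. Annotated sequences of 300 bases around the start (250 before, 50 after; RefSeq, GRCm38.p6, on the strand of the gene) were matched for 9 of the 10 genes, all but Myc. Below are those of a pair of marked promoters, Max (chr12:76962199-76962498, minus strand) and Mnt (chr11:74830674-74830973, plus strand), and those of the unmarked promoters, Mxd1 (chr6:86669110-86669409, minus strand) and Mxd4 (chr5:34187661-34187960, minus strand), to set the letters of both kinds side by side. Max and Mnt were picked for printing because theirs are the only sequences of marked network genes that hold the E-box. Capitals mark the E-box CACGTG and, on either strand, the GC box GGGCGG, known as a site of Sp1. No E-box overlaps a GC box.
Max: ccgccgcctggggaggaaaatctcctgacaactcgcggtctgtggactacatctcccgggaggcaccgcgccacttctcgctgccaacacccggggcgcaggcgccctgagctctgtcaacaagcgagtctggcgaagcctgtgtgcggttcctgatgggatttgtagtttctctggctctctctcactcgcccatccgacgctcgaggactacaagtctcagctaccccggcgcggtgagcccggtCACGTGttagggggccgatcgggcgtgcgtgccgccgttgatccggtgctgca
Mnt: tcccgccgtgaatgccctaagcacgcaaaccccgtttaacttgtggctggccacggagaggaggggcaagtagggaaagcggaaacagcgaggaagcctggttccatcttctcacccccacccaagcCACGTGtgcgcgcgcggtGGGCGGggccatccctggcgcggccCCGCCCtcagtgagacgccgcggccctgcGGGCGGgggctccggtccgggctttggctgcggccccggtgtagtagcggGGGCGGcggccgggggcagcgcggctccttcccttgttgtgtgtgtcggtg
Mxd1: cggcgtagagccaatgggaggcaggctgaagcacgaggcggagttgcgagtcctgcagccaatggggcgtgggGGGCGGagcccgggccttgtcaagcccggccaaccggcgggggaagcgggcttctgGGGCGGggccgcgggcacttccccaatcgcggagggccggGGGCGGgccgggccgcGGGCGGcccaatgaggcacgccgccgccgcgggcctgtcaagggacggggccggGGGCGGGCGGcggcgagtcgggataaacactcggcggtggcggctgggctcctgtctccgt
Mxd4: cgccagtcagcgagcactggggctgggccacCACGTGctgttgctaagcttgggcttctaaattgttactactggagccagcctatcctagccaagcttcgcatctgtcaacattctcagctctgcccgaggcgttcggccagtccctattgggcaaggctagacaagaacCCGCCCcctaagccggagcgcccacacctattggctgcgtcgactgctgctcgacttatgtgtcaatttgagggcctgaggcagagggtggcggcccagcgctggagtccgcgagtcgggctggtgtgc
Each of the Max and Mnt sequences lay with all 300 bases inside a peak, and those of Mxd1 and Mxd4 with 0 bases. The split was not as clean at the marked Mxi1, whose 3 sequences had 30, 0 and 226 bases inside a peak. CACGTG was present at Max (beginning at -3 from the RefSeq start), at Mnt (-123) and at the unmarked Mxd4 (-219), and in none of the other 8 sequences of network genes, which include 3 of Mxi1. RefSeq starts can differ from the TSS of the longest isoform used elsewhere here. From that TSS the same elements were centered at -48 at Max and -117 at Mnt. CACGTG occurred in 7.15% of all 32851 promoter sequences in the table. GC boxes numbered 4 at Mnt, 6 at Mxd1, where 2 overlap each other, 1 at Mxd4 and 0 at Max. Of the sequences not printed, that of Mxd3 held 8, the 3 of Mxi1 held 1, 4 and 4, that of Mycn 2, and those of Mycl and Mga 1 each, and 35.7% of all promoter sequences held at least 1. A match is a description of the letters and was not tested as a binding site.

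The Myc genes lay in peaks of similar width. Myc (ENSMUSG00000022346.15, plus strand of chromosome 15, 61985391 to 61990374 in mm10) had a peak of 10901 bp from 61977345 to 61988245. This peak began 8046 bp upstream of the TSS, held all 6 annotated start sites and ended inside the gene, after 2 of the 3 exons of the longest isoform had been reached, so that 57.3% of the gene was covered. Mycn (ENSMUSG00000037169.15, minus strand of chromosome 12, 12936093 to 12941914), the Myc gene first found amplified in neuroblastoma, lay wholly inside a peak of 8697 bp from 12935605 to 12944301. Mycl (ENSMUSG00000028654.13, plus strand of chromosome 4, 122995652 to 123002485), named from lung cancer, also lay wholly inside its peak, of 10376 bp from 122995561 to 123005936. The 3 peaks were placed differently. Most of the Myc peak was upstream of the TSS, that of Mycn reached 2387 bp upstream and 6309 bp downstream, and that of Mycl reached 383 bp upstream and 9992 bp downstream, past the end of the gene.

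Max (ENSMUSG00000059436.13, minus strand of chromosome 12, 76937269 to 76962201) had a peak of 15819 bp from 76954063 to 76969881 that was nearly symmetric about the TSS, with 7680 bp upstream and 8138 bp downstream. It held all 3 start sites and touched only exon 1 of the 4 exons of the longest isoform, so that its part beyond that exon lay in intron 1. A second peak of 2412 bp lay in intron 2, 16.5 kb from the TSS. Mga (ENSMUSG00000033943.15, plus strand of chromosome 2, 119897228 to 119969581), the largest protein of the network and the only one with a T-box as a further DNA-binding domain, had a peak of 6025 bp that reached 5299 bp into the gene and touched 1 of 23 exons. Of its 72354 bp, 7.33% was covered. Mnt (ENSMUSG00000000282.12, plus strand of chromosome 11, 74830920 to 74845725) had a peak of 10156 bp that held both start sites, 6548 bp apart, and touched 4 of 6 exons.

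The Mxd branch held the widest peak of the network and both unmarked genes. Mxd3 (ENSMUSG00000021485.14, minus strand of chromosome 13, 55325168 to 55329823), the member of the branch known from cells in S phase, was spanned end to end by a peak 18827 bp in width (55321237 to 55340063). That peak also overlapped the promoters of Prelid1 and Rab24 and cannot be assigned to Mxd3 alone. None of the other marked network genes shared its promoter peak with the promoter of another protein-coding gene. Mxi1 (ENSMUSG00000025025.14, plus strand of chromosome 19, 53310518 to 53375810) had 2 promoter peaks, and its start sites fall into 2 groups about 19 kb apart. The first, of 5138 bp from 53310526 to 53315663, began 8 bp after the start site of the longest isoform. The second, of 1448 bp from 53329519 to 53330966, was the narrowest promoter peak of the network, and 3 of the 6 start sites of that group lay 58 to 106 bp before it. Of the 8 start sites of Mxi1, 4 lay inside a peak. Another peak, of 5672 bp, lay in intron 1 between these promoters. At Mxd1 (ENSMUSG00000001156.9, minus strand of chromosome 6, 86647042 to 86669161) the nearest peak was 13.9 kb upstream of the TSS, at the promoter of Snrnp27. At Mxd4 (ENSMUSG00000037235.13, minus strand of chromosome 5, 34173883 to 34187720) it was 17.4 kb downstream, beyond the end of the gene, at the shared promoter of Haus3 and Poln. Unmarked protein-coding genes with a peak within 10 Mb had a median distance of 59.7 kb from TSS to peak (quartiles 18.7 and 181 kb), so that both genes lay closer to a peak than the lower quartile.

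**Figure D1:**
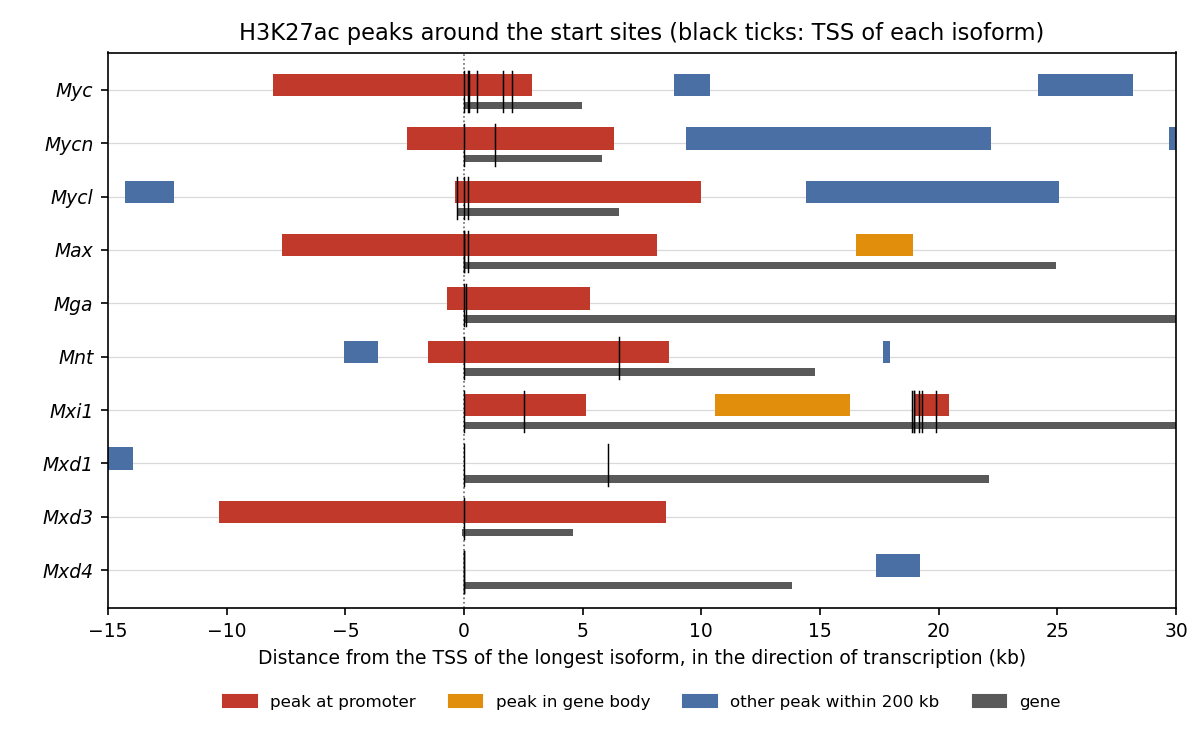
Control H3K27ac peaks from 15 kb before to 30 kb after the TSS of each network gene (x axis, kb in the direction of transcription; 1 row per gene). Red boxes are peaks at promoters, orange boxes peaks in gene bodies, blue boxes other peaks, grey bars genes and black ticks start sites. The genes Mxd1 and Mxd4 have no red box, and Mycn, Mycl and Mxd3 lie wholly under theirs.

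Promoter peaks of the network were wide. The widest at each gene ranged from 5138 bp at Mxi1 to 18827 bp at Mxd3, with a median of 10266 bp over the 8 marked genes. The median over all 11149 marked protein-coding genes was 2225 bp, with quartiles at 1570 and 4990 bp. A promoter peak of at least 5 kb was present at 8 of 8 marked network genes and at 24.9% of all marked genes. This limit was chosen after the widths were seen and lies just below the narrowest of them, so the 8 of 8 follows from the choice. One of at least 10 kb, also a limit chosen afterward, was present at 5 of 8 (Myc, Mycl, Max, Mnt and Mxd3), against 11.3%. Ranked among all marked genes, the width at Mxi1 exceeded that of 75.7% of them, that at Mga 79.5%, that at Mycn 86.7%, and those at Myc, Mycl and Mnt 88.9 to 89.9%. Max and Mxd3 exceeded 94.2 and 95.7%. Peaks closer than 2 kb were merged by the authors, so a wide peak may join several stretches of signal. These widths were not the widest of the list. Those at the 8 stem cell markers ranged from 17768 bp at Tdgf1 to 71785 bp at Tfcp2l1, with a median of 34376.5 bp.

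**Figure D2:**
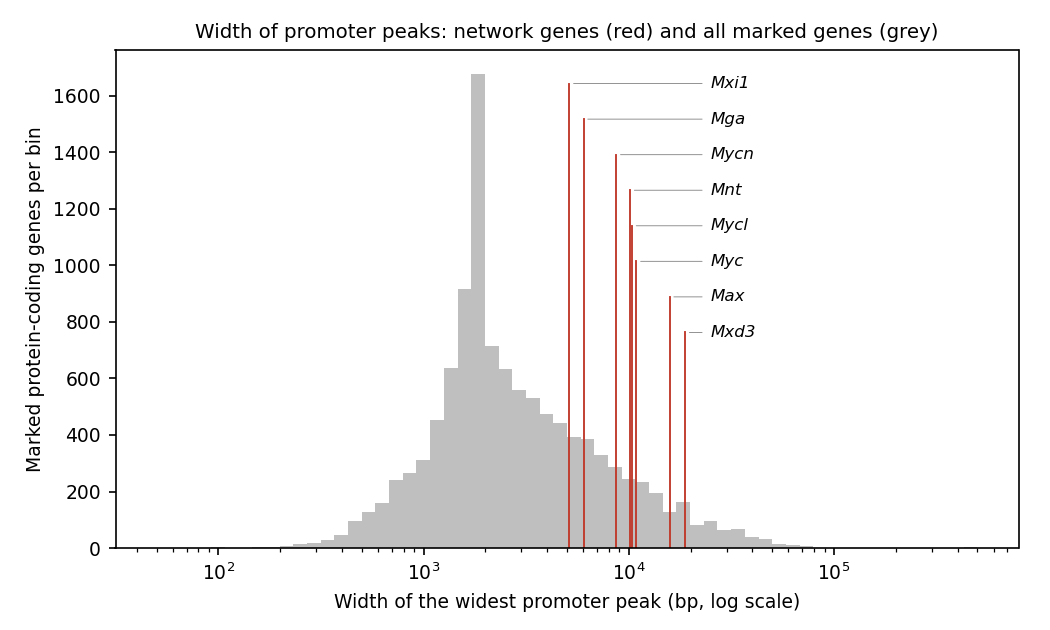
Width of the widest promoter peak (x axis, bp on a log scale) for all 11149 marked protein-coding genes as a grey histogram (y axis, genes per bin), with red lines for the 8 marked network genes. All red lines lie at 5138 bp or above, to the right of the bulk of the histogram.

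The genes Mycn, Mycl and Mxd3, 3 of the 10, lay inside a peak from the first to the last base, which was so for 2.69% of all protein-coding genes. They are among the 4 shortest network genes, with 5822, 6834 and 4656 bp, and the median of all protein-coding genes is 17380 bp. The count of genes wholly inside a peak was not planned, so its share is a description only. Peaks in the gene body away from the promoters were found at 2 of the 10 genes, Max and Mxi1, and at 19.3% of all protein-coding genes. The share of the gene covered was 42.3% at Max, 58.4% at Mnt, 18.8% at Mxi1 and 0% at Mxd1 and Mxd4.

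Outside the genes and their promoters, all 10 network genes had a peak within 200 kb, as had 87.5% of all protein-coding genes. Counting every class, the number within 200 kb ranged from 5 at Mxd4 to 16 at Myc, Mga and Mxd1, with a median of 11, against a median of 7 over all protein-coding genes (quartiles 3 and 12) and of 10 over marked ones. Counted this way, the unmarked Mxd1 had as many peaks as Myc, where 1 of the 16 was its own promoter peak. Mxd4 had the fewest of the network. The genes differed in whose peaks these were, judged by the start sites of protein-coding genes alone. Of the 107 peaks outside the genes, 36 lay at the promoter of another protein-coding gene, 39 lay elsewhere but nearest to the TSS of another such gene, and for 32 the nearest protein-coding TSS was that of the network gene itself. Start sites of noncoding genes were not counted here, and some of the 32 lie in or at such genes. No peak was nearest to Mxd1 or Mxd4, and apart from its promoter peak none was nearest to Mxd3. Of the 32, 15 belonged to Myc, 8 to Mycn, 4 to Max, 2 to Mnt, and 1 each to Mycl, Mga and Mxi1. Nearness to a TSS does not show which gene a peak acts on.

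**Figure D3:**
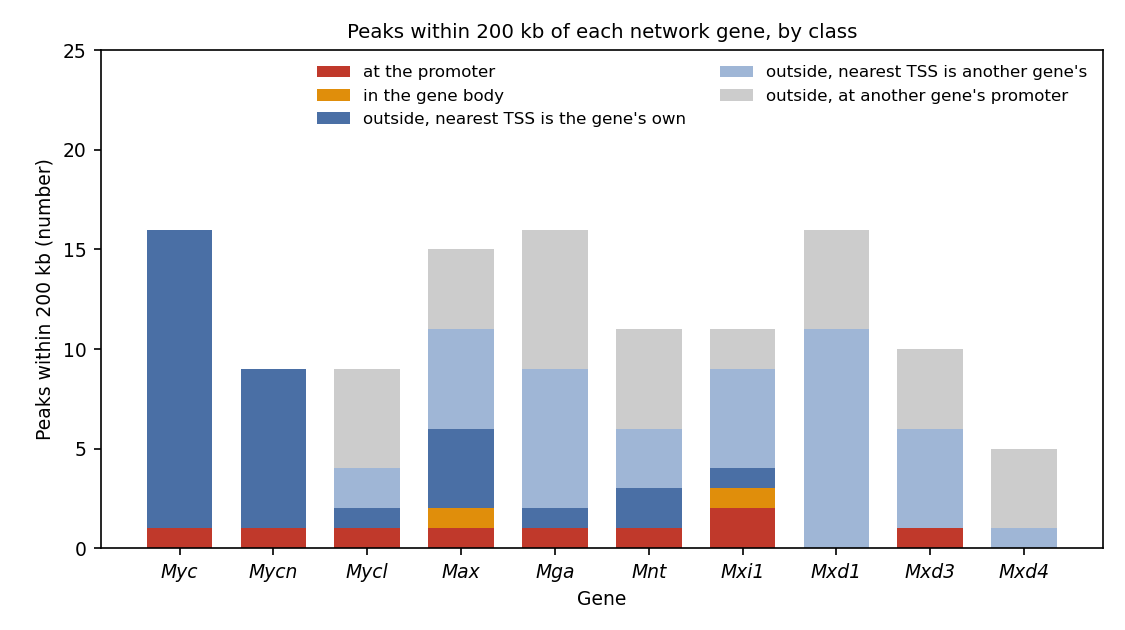
Number of control peaks within 200 kb of each network gene (y axis), stacked by class, with classes set by protein-coding genes only. The bars of Myc (16 peaks) and Mycn (9) hold no peak at the promoter of, or nearest to, another protein-coding gene, whereas those of Mxd1 (16) and Mxd4 (5) hold no other kind.

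The peaks around Myc and Mycn all lay on the downstream side. Myc had 15 peaks within 200 kb downstream, from 3.88 kb after the end of the gene onward, and 0 upstream, where the nearest peak of the list was 1160.5 kb from the gene. Mycn had 8 downstream, the nearest 3.55 kb after its end, and 0 upstream, where the nearest was 306 kb away. Among the 8955 protein-coding genes with at least 8 peaks around them, all were downstream at 1.62%. The minimum of 8, which is the count at Mycn, and the side were chosen after the pattern at Myc and Mycn was seen, so this share is a description only. Myc and Mycn also stand far from other protein-coding genes. The nearest upstream of Myc was A1bg at 1062.4 kb and the nearest downstream Gsdmc at 1785.6 kb, and for Mycn they were Ddx1 at 275 kb and Fam49a at 555 kb. Of the 15 peaks downstream of Myc, 12 lay in the long noncoding gene Pvt1 (ENSMUSG00000097039.8, 62037986 to 62378096), known as a neighbor of Myc that is amplified together with it. Another 3 lay between Myc and Pvt1. At start sites of Pvt1 isoforms there were 3 peaks. The peaks at these loci differed in width. Those downstream of Myc had a median of 2027 bp and were at most 4930 bp wide, and those downstream of Mycn had a median of 7371 bp and reached 26225 bp in the peak farthest from the gene, which overlapped the noncoding gene Platr19. Peaks covered 43.3 kb within 200 kb of Myc (10.7%) and 85.3 kb of Mycn (21%), although Mycn had fewer of them.

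The other genes had peaks on both sides. All but Max also had another protein-coding gene within 200 kb on each side. Upstream of Max the nearest was Fut8 at 276 kb. Max had 10 peaks downstream and 3 upstream, and all 10 downstream overlapped the span annotated as Fntb, which encodes a subunit of farnesyltransferase. Mga had 8 upstream, the nearest of them 36609 bp wide and the widest of the 107, and 7 downstream. Mycl had 4 on each side and Mxd1 8 on each side. Mxd3 had 6 downstream and 3 upstream, and Mnt 4 and 6.

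**Figure D4:**
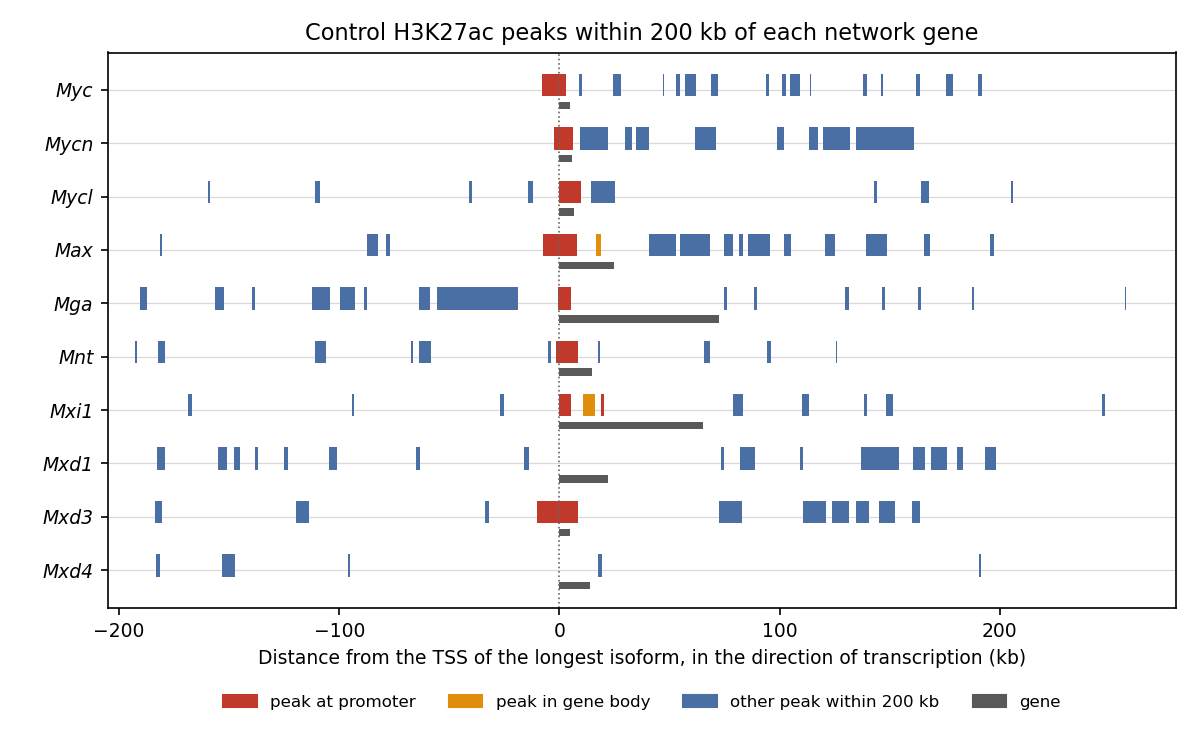
Control H3K27ac peaks within 200 kb of the ends of each network gene, placed by distance from the TSS (x axis, kb in the direction of transcription; 1 row per gene, grey bars the genes). Around Myc and Mycn all blue boxes, the peaks outside gene and promoter, lie to the right of the gene, and around the other 8 genes they lie on both sides.

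Base composition within 1 kb of the TSS did not set the unmarked genes apart from the marked ones. Within 1 kb of the TSS of the longest isoform, the ratio of observed to expected CpG was 0.714 at Mxd1 and 0.727 at Mxd4, and it ranged from 0.648 at Mxd3 to 0.774 at Mga over the 8 marked genes. The median was 0.634 over all marked and 0.226 over all unmarked protein-coding genes. The ratio at Mxd1 was higher than at 95.4% of unmarked genes and that at Mxd4 higher than at 96.1%. Of the 3936 genes with a ratio at least as high as that of Mxd1, 87.4% were marked. GC content in the same window was 58.7% at Mxd1 and 62.9% at Mxd4, inside the range of the marked genes, 49.2% at Mga to 62.9% at Mycl. In the shorter sequences of 300 bases it was 76.7% at Mxd1 and 61% at Mxd4. Those matched for marked genes ranged from 56 to 75%, both at Mxi1, so that Mxd1 lay above them.

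**Figure D5:**
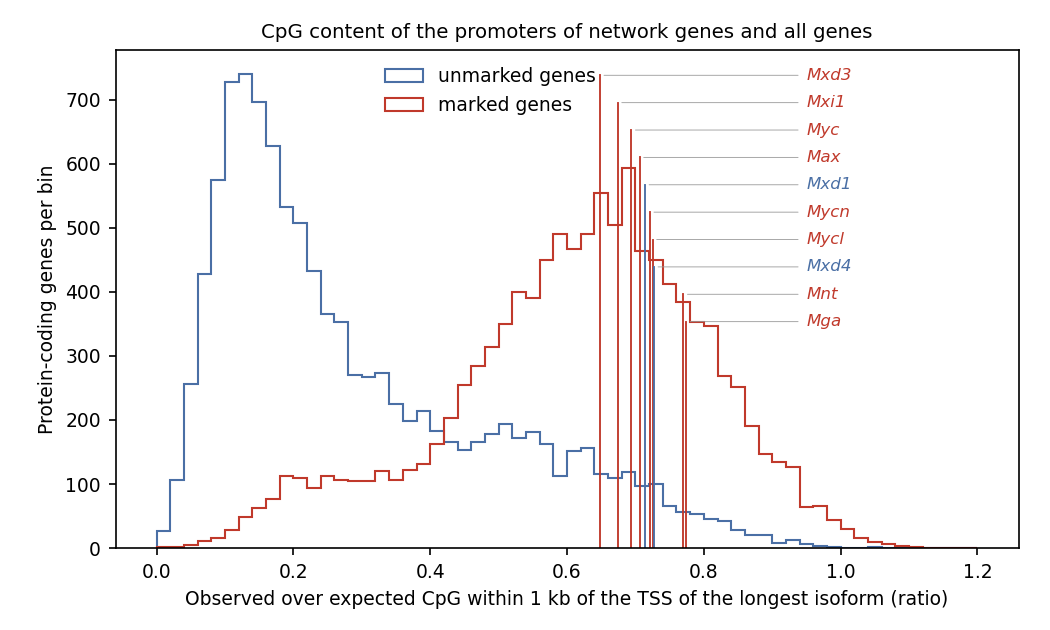
Ratio of observed to expected CpG within 1 kb of the TSS (x axis) for marked (red) and unmarked (blue) protein-coding genes (y axis, genes per bin), with a line for each network gene in the color of its class. The blue lines of Mxd1 (0.714) and Mxd4 (0.727) lie among the red lines, in the range of marked genes.

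The letters of the E-box, the element that the network binds, were counted in its own peaks. CACGTG occurred 25 times in the 9 promoter peaks, which span 87.4 kb together, or 0.286 per kb, and at least once in 6 of them (66.7%). Peaks at protein-coding promoters had 0.184 per kb with at least 1 match in 42.9%, and those of at least 5 kb had 0.165 per kb with at least 1 match in 76.9%. By share of peaks the network thus lay below other wide promoter peaks, and by matches per kb above them. Max held 8 matches, Mxd3 6, Mga and Mnt 4 each, Mycl 2 and the second peak of Mxi1 1. The peaks of Myc and Mycn and the first of Mxi1 held 0. Within 1 kb of the TSS, Max, Mnt and Mxd3 held 2 each and the unmarked Mxd4 held 1, and 27.5% of all protein-coding genes held at least 1. Other motifs were searched likewise on both strands and are set beside all peaks at protein-coding promoters and then those of at least 5 kb, a width that 8 of the 9 network peaks reach. TTCCNGGAA, the form bound by STAT factors that carry the LIF signal, occurred once each at Max, Mnt and Mxd3, in 33.3% of the network peaks against 12.7% and 31.9%. CTTTGAT, the form bound by TCF factors of Wnt signaling, occurred 9 times in 6 peaks, 3 of them at Mxd3, and the shares were 66.7% against 31.6% and 74.6%. TCAAGGTCA, the form bound by Esrrb, occurred 5 times in 3 peaks, 3 of them at Mycn, with shares of 33.3% against 12.7% and 38.6%. TTTCGCGC, a form bound by E2F factors, occurred once, at Mycn, and 2.02% and 3.34% held it. In the 107 peaks outside the genes CACGTG occurred 88 times, 0.194 per kb. Since 36 of these lie at promoters of other genes, the values beside it are 0.174 over all peaks, 0.184 over peaks at protein-coding promoters and 0.165 over peaks away from them. These counts are small, and none was tested.

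Genes that work with the network were nearly all marked. Of 26 partners and regulators, 25 had a promoter peak, beside 51.0% of all protein-coding genes. Among them were the paralogous branch Mlx, Mlxip and Mlxipl (1371, 1564 and 2022 bp), Zbtb17, which encodes the Myc partner Miz1 (21497 bp), and Pcgf6, E2f6 and L3mbtl2, which encode further subunits of the Polycomb complex of Mga (7303, 1167 and 7021 bp). Nmi was not marked, with the nearest peak 17.5 kb from a start site. Of 26 textbook targets of Myc, 25 were marked, beside the same 51.0%, such as Odc1 (2810 bp), which encodes the rate-limiting enzyme of polyamine synthesis, the nucleolar genes Ncl and Nop58 (19470 and 19412 bp) and the telomerase gene Tert (6165 bp). Ccnd2, which encodes a cyclin of early G1 phase, was not marked, and its nearest peak was 1.03 kb from a start site, just outside the window. The median width of the widest promoter peak was 4021 bp for the partners and regulators and 6367 bp for the targets, against 2225 bp over all marked protein-coding genes. A width of at least 5 kb was found at 12 of the 25 and 16 of the 25 marked genes, beside 24.9% of all marked genes. Both lists include genes with general roles in dividing cells. Whether this bears on the shares was not tested.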

How the data were processed

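ChIP-seq for H3K27ac was done on mESCs (control, NVP-2 and ActD, 2 replicates each), and 1 list of control peaks was analysed here. Per the labels and the methods, the authors aligned reads to mm10 with the human genome as a spike-in (bwa meme), removed duplicates (Picard 2.9.1) and poorly mapped reads (SAMtools 1.4), called peaks with LanceOtron, merged those within 2 kb, and dropped peaks that were low or far from ATAC-seq summits. The deposited values are positions in base pairs. A promoter without a listed peak may have failed a filter.

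Peaks were set against GENCODE M21 (GRCm38, the same build; chromosome lengths were checked). A promoter with an overlap of at least 1 bp was counted as marked. Network peaks were described beside all protein-coding genes, without tests. All 10 genes, unmarked listed genes (at most 4 examples where more than 10), genes sharing a promoter peak and the gene nearest to a described peak were to be named. Marked listed genes and Pvt1 were named after their values were seen. Members, lists and motifs were chosen with earlier results of these data known. The overlap code was tested on simulated data. Python 3.11.15, pandas 2.3.3 and numpy 2.4.6 were used.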

Additional observations from a re-analysis of the deposited data

How the results depend on the processing

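The number of marked network promoters was 8 under all 8 alternatives (windows of 500 bp or 2 kb to each side, the TSS inside a peak, the longest isoform, basic transcripts, transcripts of every type, which was added after seeing the data, only peaks of 1 kb or more, 500 bp as the minimum overlap), and none of 80 single values changed. Over all protein-coding genes the share moved between 45.6 and 51.9%, and of the 52 partners, regulators and targets 49 to 51 were marked, against 50. The number of peak-bearing gene bodies and the median width at promoters stayed the same. The median number of peaks within 200 kb, 11, was 10.5 when counted from the TSS, 6.5 within 100 kb, 20.5 within 500 kb, 10 for peaks at least 1 kb wide and 2.5 for peaks nearest to the gene, of which 7 of the 10 genes had any outside gene and promoter. The median share of the gene covered, 49.8%, was 52.8% with 1 kb added before the TSS. The E-box density, 0.286 per kb, was 0.35 in promoter windows. For CANNTG it was 4.58, below the 4.97 of all peaks at protein-coding promoters and the 5.35 of those of at least 5 kb, the opposite order to CACGTG in whole peaks. No value over all genes was computed for the windows. GC boxes, chosen after seeing the data like both width limits, had 1.13 per kb, beside 1.1 at all protein-coding promoters and 0.612 in those of at least 5 kb. Promoter peaks of at least 10 kb numbered 5. These changes follow from what each alternative counts. No paired analysis was possible because the single list pools both control replicates, and for the same reason no replicate could be left out. Counts of peaks and their widths are limited by the list itself, which gives no reads per peak and no signal below the thresholds of the authors.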
